A study of Mus musculus with 12 samples.

Results

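The genes described here are 10 transcription factor genes known from blood stem cells and early progenitors: Hoxa5, Hoxa7, Hoxa9, Hoxa10, Hoxb4, Meis1, Myb, Erg, Mecom and Hlf. Their probe sets were all those on the 2 arrays whose annotated symbol is exactly 1 of these names, 22 of 45137 in all, of which 16 of 22626 lay on the MOE430A array (chip A) and 6 of 22511 on the MOE430B array (chip B). All 10 genes had at least 1 probe set, among 18193 genes that had a set of their own on these arrays. The cells were mouse bone marrow-derived mast cells, grown from femur and fibula marrow in RPMI medium with interleukin-3 (IL-3), which lets mast cells outgrow the other marrow cells. Precursor cultures M1 (female), M3 and M5 (both male) had been grown for 14 to 16 days, and mature cultures M2, M4 (both male) and M6 (female) for 57 to 110 days. The hematopoietic stem cells in the title of the series were not analysed here. All 6 cultures share the medium, the growth in IL-3 and the marrow source. The labels name no strain, age or genotype, put the purity of every culture at about 80%, and list stromal cells, monocytes and macrophages as cells that may remain. Each culture was read on 1 array of each chip, 12 arrays together. Whether the cultures came from separate animals is not stated in the labels, so the p-values measure only the spread between these cultures.

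Hox genes lie in 4 clusters and encode homeodomain proteins that bind DNA together with partners of the TALE homeodomain family, to which MEIS1 and the PBX proteins belong. In blood formation HOXA9, HOXA10, HOXB4 and MEIS1 are known for their high level in stem cells and early progenitors and for their decline as cells mature, and HOXA9 with MEIS1 is known for driving leukaemia. MYB, ERG, MECOM (the product of the Mds1 and Evi1 complex locus) and HLF are further DNA-binding proteins that stem and progenitor cells depend on.

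The sequences before the start sites of Hoxa5, Hoxa9 and Myb are shown because these are the genes with a probe set whose difference between precursor and mature cultures had an unadjusted p under 0.05. Each is the run of 250 bases that ends just before the RefSeq start site in build GRCm38.p6, written 5′ to 3′ on the gene's own strand. Hoxa5 lies at chr6:52204588-52204837 on the minus strand, Hoxa9 at chr6:52227371-52227620 on the minus strand and Myb at chr10:21160985-21161234 on the minus strand. No capitals appear in them, because capitals were kept for matches to the 4 motifs named after them.
Hoxa5: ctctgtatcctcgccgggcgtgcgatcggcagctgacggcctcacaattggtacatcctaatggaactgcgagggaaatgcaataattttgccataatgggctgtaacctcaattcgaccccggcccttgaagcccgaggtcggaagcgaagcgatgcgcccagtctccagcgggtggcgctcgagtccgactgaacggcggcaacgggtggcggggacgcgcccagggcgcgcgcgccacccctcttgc
Hoxa9: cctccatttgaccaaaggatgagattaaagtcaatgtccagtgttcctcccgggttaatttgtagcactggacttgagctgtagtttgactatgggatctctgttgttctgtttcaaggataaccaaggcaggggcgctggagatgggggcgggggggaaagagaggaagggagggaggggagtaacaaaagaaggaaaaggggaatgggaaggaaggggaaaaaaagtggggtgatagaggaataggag
Myb: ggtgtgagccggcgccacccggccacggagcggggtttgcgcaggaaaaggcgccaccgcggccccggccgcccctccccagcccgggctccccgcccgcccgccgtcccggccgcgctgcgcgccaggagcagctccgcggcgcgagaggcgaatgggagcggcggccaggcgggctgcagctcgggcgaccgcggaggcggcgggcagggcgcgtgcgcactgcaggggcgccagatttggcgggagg
RefSeq gave 14 such windows for the 10 genes, with 3 for Erg and 2 each for Hoxa10 and Mecom. They were searched on both strands for the MEIS core TGACAG, the HOX-PBX motif TGATTNAT, the ETS core CCGGAA and the GATA motif AGATAA, and no matches overlapped. The 3 windows shown held none of these 4 motifs. Of the 14 windows, 2 held TGACAG (1 of Erg and 1 of Mecom), 3 held CCGGAA (1 each of Hoxa10, Meis1 and Hlf), 1 of Erg held AGATAA and 0 held TGATTNAT. Among all 32851 windows of this length, 15.9% held TGACAG, 12% CCGGAA, 9.99% AGATAA and 2.82% TGATTNAT. The windows shown differ in base composition, with 3 CpG pairs and 49.6% G and C before Hoxa9, 28 pairs and 63.6% before Hoxa5, and 40 pairs and 81.2% before Myb.

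The values are MAS5 signals per probe set, a linear brightness scale on which 1 probe set cannot be set against another. The chip median was 582 on chip A and 864 on chip B, and the floor, the 30th percentile of the chip's table, was 247 and 359. A probe set is called dim where it lay at or under the chip median in all 6 cultures. Of the 22 probe sets, 7 were dim in all 6 cultures, and 3 of these lay at or under the floor in all 6. The 3 at the floor were the single set of Hoxa7 (1449499_at, 62.7 to 129), the chip A set of Erg (1425370_a_at, 40.2 to 65.6) and a chip A set of Mecom (1423011_at, 49.4 to 213). The other 4 dim sets were those of Hoxa5 (1448926_at, 40.3 to 258), Hoxa10 (1431475_a_at, 171 to 367), Hoxb4 (1451761_at, 211 to 442) and Myb (1422734_a_at, 88.2 to 435). All 7 were on chip A, where 34.9% of all probe sets were dim in all 6 cultures and 14.5% at the floor in all 6. Hoxa7 was the 1 gene of the 10 with no set above these limits, while Hoxa5, Hoxa10, Hoxb4, Myb, Erg and Mecom each had another set above its chip's median in at least 3 cultures.

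**Figure D1:**
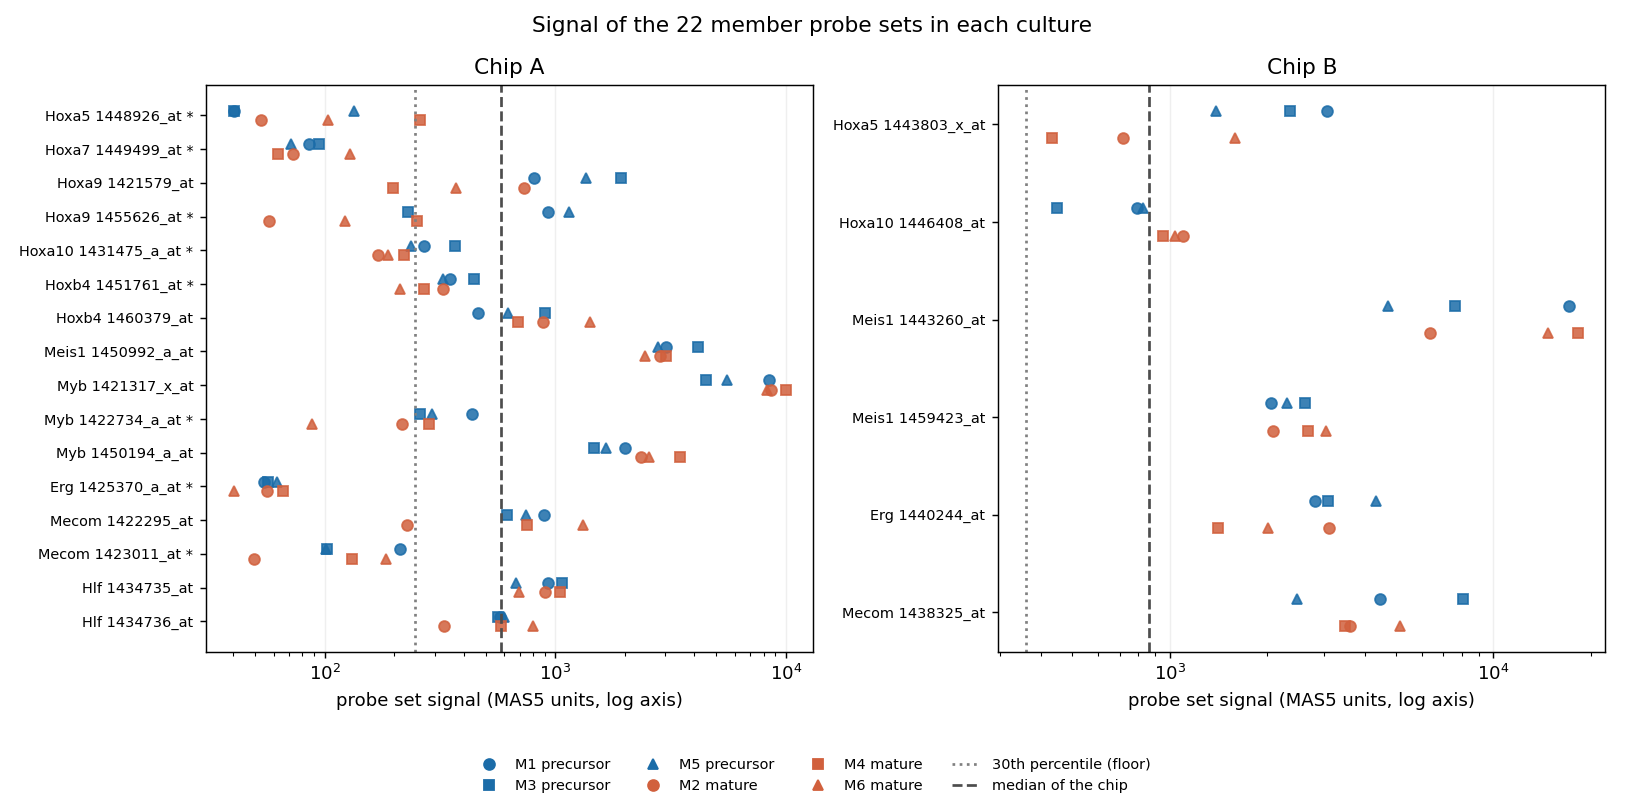
MAS5 signal of the 22 probe sets of the 10 genes in each culture on a log axis, chip A on the left and chip B on the right, with blue symbols for precursor and orange for mature cultures, a dotted line at the floor and a dashed line at the chip median. An asterisk marks the sets that did not pass the filter on dim values, and Meis1 and 2 of the 3 sets of Myb lie above the chip median in all 6 cultures.

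The test asked whether mature cultures differ from precursors. It was limma on floored log2 signals over all probe sets with at least 3 of 6 cultures above the chip median (11576 for chip A, 11880 for chip B), with Benjamini-Hochberg adjustment within the chip. Of the 22 sets, 14 of 9 genes passed this filter, 8 on chip A and 6 on chip B. None of the 14 reached an adjusted p under 0.05. The background, the share of all tested sets that did, was 0.527% (61 sets) for chip A and 0.0926% (11 sets) for chip B. At an unadjusted p under 0.05, 3 of the 14 passed, 2 of 8 for chip A, with a background of 6.59%, and 1 of 6 for chip B, with a background of 6.42%. The 3 were a set of Hoxa9 and a set of Hoxa5, both with lower values in mature cultures, and a set of Myb with higher values. The median difference over the member sets, mature minus precursor, was -0.06 on the log2 scale on chip A, against 0.02 over all sets tested, and 0.00019 against 0.0040 on chip B. Differences were below 0 in 8 sets and above 0 in 6, so the 14 sets, of 9 genes, showed no common direction. In RNA of a whole culture, fewer cells of a type and less RNA per cell cannot be told apart.

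**Figure D2:**
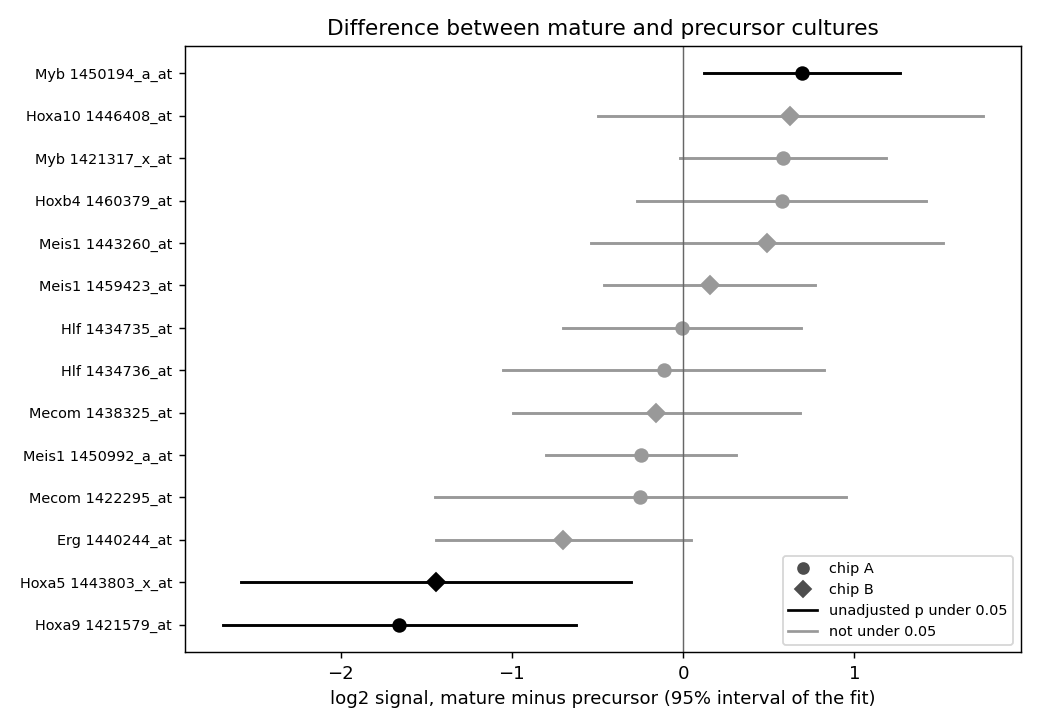
Difference in log2 signal, mature minus precursor, for the 14 probe sets that passed the filter, with the 95% interval of the limma fit (3 cultures per group), circles for chip A and diamonds for chip B. Black marks the 3 sets with an unadjusted p under 0.05, Hoxa9 and Hoxa5 below 0 and Myb above 0, and the intervals of the other 11 include 0.

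Some array measures moved with the groups or divided the cultures. The ratio of the actin 3′ to 5′ control signal, a measure of RNA length, was 4.81 to 7.04 in precursors and 9.73 to 10.1 in mature cultures on chip A, and 4.87 to 7.25 against 8.66 to 10.8 on chip B. It divided the cultures as the stage does, so its part cannot be told apart from that of the stage. The same ratio for Gapdh overlapped on chip A (9.105 to 13.46 in precursors, 12.82 to 19.31 in mature cultures). On chip B it did not overlap (9.437 to 13.69 against 16.84 to 22.05). A further ratio was that of the 5′ probe sets of the poly-A labelling controls to the hybridization controls. On chip A it was 0.252 to 0.364 in M1, M4 and M6 and 0.825 to 1.31 in M2, M3 and M5. Chip B gave the same division (0.285 to 0.306 against 0.934 to 1.45). Each of these 2 sets of cultures holds both stages, so that the division does not coincide with the stage. Both female cultures, M1 and M6, lie in the low-ratio set, and the high-ratio set is all male. M6 stood apart with a hybridization control signal of 63420 on chip A, where the other 5 lay between 19660 and 28120. Its poly-A control signal on chip A, 17830, was close to that of M5 (18220), a high-ratio culture. M1 and M2 were washed on fluidics station 1 and the other 4 cultures on station 2. The part of these measures in the results was not tested, and values within each set of cultures and within each station stand beside the genes that differed most between or within them.

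Hoxa9, the posterior Hox gene most closely tied to stem cell expansion, had lower values in the mature cultures in the 1 of its 2 sets that was tested, without passing the test. In set 1421579_at the signal was 806 in M1, 1923 in M3 and 1360 in M5, and 733 in M2, 197 in M4 and 372 in M6. Every precursor was above every mature culture, but M1 and M2 were close, and M4 lay under the floor. The log2 mean was 10.32 ± 0.63 (SD, n = 3) in precursors and 8.67 ± 0.79 in mature cultures after the floor was applied. The fitted difference was -1.66 ± 0.47 (SE), with a 95% interval of -2.69 to -0.62, which is 3.15-fold lower. Its unadjusted p in limma was 0.0048 and its adjusted p 0.28. The values also differed by control ratio, with a log2 mean of 8.71 in the low-ratio cultures and 10.28 in the high-ratio ones. This gap was -1.57, close in size to the one between stages. M4 and M6 of the low-ratio cultures were mature and M3 and M5 of the high-ratio ones precursors, so each gap holds part of the other. With the division by control ratio as a term, the stage difference was -1.28. The difference was -1.41 within the cultures of the low control ratio and -1.14 within those of the high ratio. Between the 2 cultures of station 1 it was -0.14, and among the 4 of station 2 it was -2.42.

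The second Hoxa9 set, 1455626_at, did not pass the filter on dim values. Its signal was 932 in M1, 229 in M3 and 1143 in M5, against 57.3 in M2, 251 in M4 and 123 in M6. M1 and M5 stood above the chip median, whereas M3 lay at the floor with M2 and M6, so the groups overlapped. M3 was the highest of the 6 cultures in the first set and at the floor in the second. The 2 sets therefore did not rank the precursors alike.

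Hoxa5, which in mouse development patterns the neck and lung and in human blood progenitors is known for favouring myeloid fate, was measured on both chips. The chip B set 1443803_x_at gave 3052 in M1, 2346 in M3 and 1386 in M5, and 720 in M2, 432 in M4 and 1590 in M6. M2 and M4 were below all precursors, while M6 was above M5. The log2 mean was 11.07 ± 0.58 (SD, n = 3) in precursors and 9.63 ± 0.95 in mature cultures, a difference of -1.44 ± 0.52 (SE; 95% interval -2.58 to -0.30). The limma p was 0.018 unadjusted and 0.66 adjusted, and the unadjusted p rose to between 0.054 and 0.085 without M1, M3 or M4. The difference was -1.88 within the low-ratio cultures and -1.33 within the high-ratio ones, and -2.08 on station 1 against -1.12 on station 2. The ending _x_at is Affymetrix's mark for probes that may also match other transcripts. The chip A set of Hoxa5, 1448926_at, was at the floor in 5 cultures and reached 258 in M4, the culture with the lowest signal in the chip B set.

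Hoxa10, the neighbour of Hoxa9 in the cluster, passed the filter on dim values on chip B only. The chip A set 1431475_a_at, dim in all cultures, read 269, 367 and 238 in M1, M3 and M5 and 171, 220 and 187 in M2, M4 and M6. M5 and all 3 mature cultures were under the floor there, so that the set gives no order among those 4. The chip B set 1446408_at read 794, 450 and 828 in the precursors and 1098, 953 and 1040 in M2, M4 and M6. Here every mature culture was above every precursor, and M3 was the lowest. The difference on chip B was 0.63 ± 0.51 (SE; 95% interval -0.50 to 1.75), with a limma p of 0.24 unadjusted and 0.86 adjusted.

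Across the 14 tested sets, the stages did not overlap in 3, namely Hoxa9 1421579_at, Myb 1450194_a_at and Hoxa10 1446408_at. That is 2 of 8 sets for chip A, where the background was 12.2%, and 1 of 6 for chip B, where it was 12%. Hoxa7, which lies between Hoxa5 and Hoxa9, read 85.5, 94.7 and 71.2 in the precursors and 72.9, 62.7 and 129 in the mature cultures, all under the floor, so that no difference in Hoxa7 could be measured.

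Hoxb4, the Hox gene known for expanding blood stem cells when it is overexpressed, had 1 tested set, which did not pass. In 1460379_at the signal was 461 in M1, 901 in M3 and 623 in M5, and 881 in M2, 692 in M4 and 1407 in M6. The groups overlapped, with M6 the highest and M1 the lowest. The difference was 0.58 ± 0.38 (SE; 95% interval -0.27 to 1.42), with a limma p of 0.16 unadjusted and 0.85 adjusted. The dim set 1451761_at read 351, 442 and 327 in the precursors and 325, 269 and 211 in the mature cultures, under the chip median throughout and with M6 under the floor.

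The other Hox genes give the setting for these 5. Of the 33 Hox genes with a probe set of their own on either chip, 11 had a set that passed the filter, and 4 had a set above the chip median in all 6 cultures (Hoxa3, Hoxb2, Hoxb3 and Hoxc6). In 18 genes no culture was above the median in any set, and 9 of these lay at the floor in all 6 cultures in every set. Among the 28 measured Hox genes besides the 5 described, 9 of 39 sets passed the filter and none reached an adjusted p under 0.05. At an unadjusted p under 0.05 there was 1 set, of Hoxb3 on chip B (1456229_at). The genes named from the list, those with the highest mean signal, were Hoxa3, Hoxb3, Hoxd13 and Hoxc6. Hoxb3 read 970, 976 and 1408 in the precursors and 1824, 1696 and 2394 in the mature cultures, a difference of 0.82 ± 0.35 (SE; limma p 0.04, adjusted 0.76). Hoxa3 (1431392_at) read 1984 to 2769 in precursors and 1422 to 2040 in mature cultures, and Hoxc6 1427362_x_at 958 to 1297 and 730 to 1786. Hoxd13 1440626_at, a gene of the far end of its cluster, read 1261 to 2673 in precursors and 101 in M2, 1721 in M4 and 1112 in M6. Some of the other sets of these genes were dim in all 6 cultures. These included Hoxb3 1427605_at (90.5 to 269), Hoxa3 1427433_s_at (164 to 457) and Hoxc6 1427454_at (157 to 401). Hoxa3 1452421_at was above the chip median only in M1 (632), with 202 in M3, 375 in M5 and 113 to 266 in mature cultures. Hoxd13 1422239_at lay at the floor in all 6 (30.9 to 53.4), while Hoxc6 1427361_at was above the chip median in all 6 (692 to 1867).

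**Figure D3:**
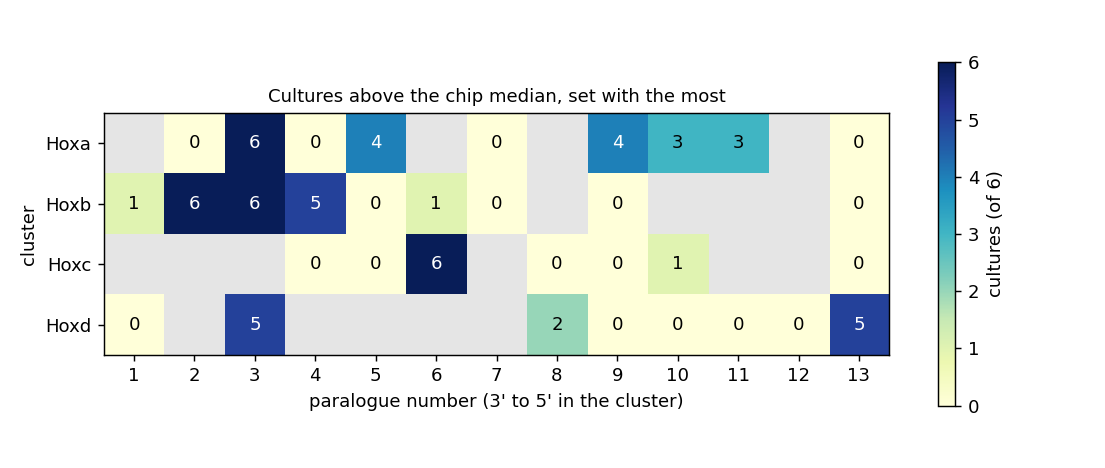
Number of cultures (of 6) above the chip median for each Hox gene with a probe set of its own, by cluster and paralogue number, taken from the gene's set with the most such cultures; grey squares have no such set. Hoxa3, Hoxb2, Hoxb3 and Hoxc6 reach 6, and Hoxa7 stands at 0 between Hoxa5 and Hoxa9 at 4 each.

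Meis1, the TALE partner of HOXA9, was well above the chip median in every culture in all 3 of its sets, and none separated the stages. In the chip A set 1450992_a_at the signal was 3024 in M1, 4161 in M3 and 2799 in M5, and 2848 in M2, 3026 in M4 and 2460 in M6. The groups overlapped, and 5 of the 6 values lay between 2460 and 3026. The difference was -0.24 ± 0.25 (SE; 95% interval -0.80 to 0.31; limma p 0.35, adjusted 0.92). The chip B set 1459423_at was as even, with 2052, 2617 and 2300 in the precursors and 2092, 2675 and 3050 in the mature cultures. Its difference was 0.16 ± 0.28 (SE; 95% interval -0.46 to 0.77; adjusted p 0.94 in limma). As a ratio of mature to precursor signal, the 2 intervals run from 0.575 to 1.24 and from 0.727 to 1.71.

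The third Meis1 set, 1443260_at on chip B, varied most. It read 17177 in M1, 7632 in M3 and 4716 in M5, and 6372 in M2, 18241 in M4 and 14737 in M6. M1, M4 and M6 were high and M2, M3 and M5 low, each side holding cultures of both stages. The difference between stages was 0.49 ± 0.47 (SE; 95% interval -0.54 to 1.52; limma p 0.32, adjusted 0.88). The division is the one by the control ratio, with a log2 mean of 14.02 in the low-ratio cultures and 12.58 in the high-ratio ones. Within those 2 sets of cultures the stages differed by -0.07 and 0.09. On station 1 the difference was -1.43 and on station 2 it was 1.45. Mecom 1422295_at and Erg 1440244_at followed the same division, so that low-ratio and high-ratio cultures did not overlap in 1 of 8 tested member sets of chip A, against 15.4% of all its tested sets, and in 2 of 6 of chip B, against 13.2%.

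**Figure D4:**
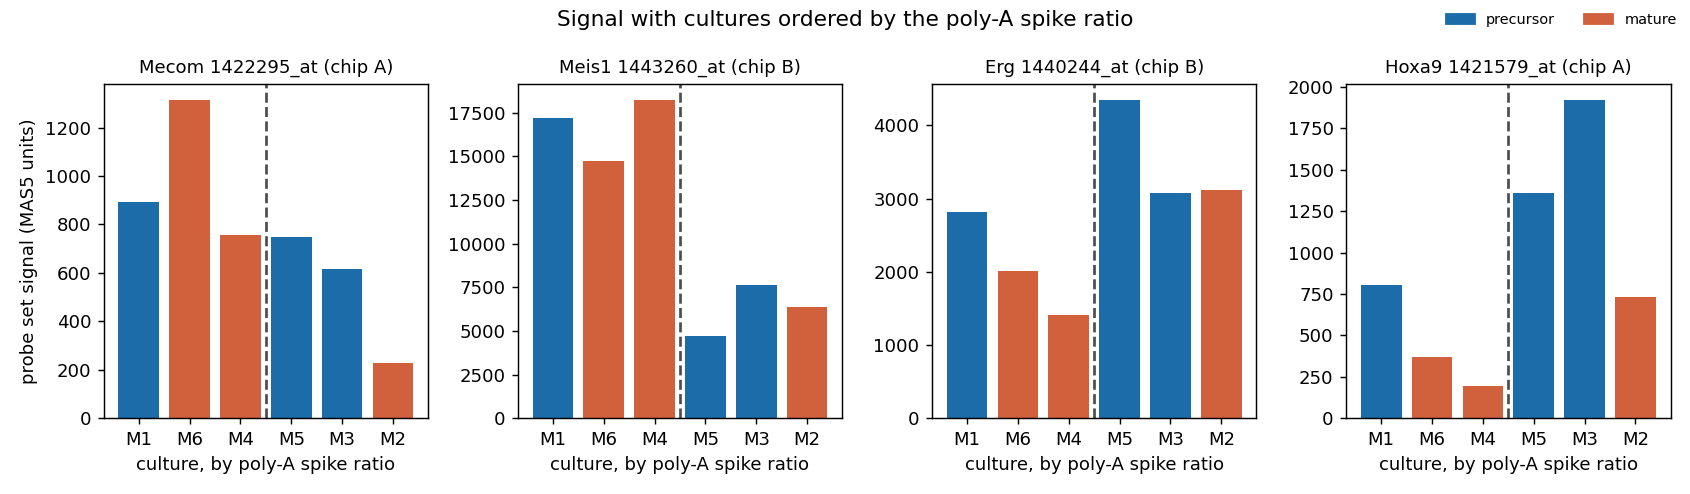
MAS5 signal in each culture for 4 probe sets, with blue bars for precursors and orange for mature cultures. The cultures run from the lowest to the highest ratio of 5′ poly-A to hybridization controls on chip A. A dashed line lies between the 3 low and the 3 high ones. Meis1 1443260_at and Mecom 1422295_at are higher in all 3 low-ratio cultures, and Erg 1440244_at is higher in all 3 high-ratio ones. Hoxa9 1421579_at overlaps between them only because M1 lies above M2, and its log2 mean is 8.71 in the low-ratio and 10.28 in the high-ratio cultures.

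The other TALE genes, which encode the PBX, PREP and further MEIS proteins, showed no change that passed the test. Of their 9 tested sets on both chips 0 passed, and 1 had an unadjusted p under 0.05. The genes named from the list were Pbx3, Meis2, Pbx2 and Pknox2. Pbx3 1447640_s_at, the 1 set under 0.05, read 7954, 6345 and 4852 in the precursors and 12501, 9575 and 9332 in the mature cultures, a difference of 0.73 ± 0.24 (SE; limma p 0.011, adjusted 0.58). A second Pbx3 set on chip A, 1421193_a_at, gave a difference of 0.27 ± 0.41. Meis2 1457632_s_at read 6245 to 8341 in precursors and 7089 to 9984 in mature cultures.

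Myb, which keeps blood progenitors dividing and is required for definitive blood formation, was above the chip median in all 6 cultures in 2 of its 3 sets. It was higher in the mature cultures in both, in one of them without overlap, and did not pass the test. Set 1450194_a_at read 2009 in M1, 1478 in M3 and 1660 in M5, and 2356 in M2, 3467 in M4 and 2558 in M6. M1 was the highest precursor and M2 the lowest mature culture. The log2 mean was 10.73 ± 0.22 (SD, n = 3) in precursors and 11.43 ± 0.29 in mature cultures, a difference of 0.69 ± 0.26 (SE; 95% interval 0.12 to 1.27), or 1.62-fold. The limma p was 0.022 unadjusted and 0.58 adjusted, and the unadjusted p was 0.077 without M3 and 0.096 without M4. The difference was 0.57 and 0.59 within the low-ratio and the high-ratio cultures, 0.23 on station 1 and 0.93 on station 2.

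Set 1421317_x_at of Myb read 8488, 4497 and 5536 in the precursors and 8606, 9988 and 8256 in the mature cultures. M1 reached the level of the mature cultures, and M3 and M5 were lower. The difference was 0.58 ± 0.27 (SE; 95% interval -0.02 to 1.18; limma p 0.057, adjusted 0.75). It was 0.10 within the low-ratio cultures and 0.79 within the high-ratio ones, and 0.02 on station 1 against 0.86 on station 2. Like the chip B set of Hoxa5, this set has the ending _x_at, so its probes may also match other transcripts. The third set, 1422734_a_at, was dim in all cultures, with 435, 258 and 292 in the precursors and 215, 282 and 88.2 in the mature ones. Of the 6 tested sets of Myb relatives and cofactors, of which Ep300, Crebbp, Mybbp1a and Mybl2 are named, 0 passed the test at an adjusted p and 0 had an unadjusted p under 0.05 in limma. The histone acetyltransferase gene Ep300, whose product binds MYB, read 5912 to 9714 in precursors and 4517 to 8063 in mature cultures.

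Erg, an ETS factor that maintains stem cells, was measurable on chip B only. Set 1440244_at read 2812 in M1, 3080 in M3 and 4351 in M5, and 3113 in M2, 1409 in M4 and 2012 in M6. M4 and M6 were below all precursors, but M2 was above M1 and M3. The difference was -0.70 ± 0.34 (SE; 95% interval -1.44 to 0.05; limma p 0.064, adjusted 0.76). It was -0.74 within the low-ratio cultures and -0.23 within the high-ratio ones, and 0.15 on station 1 against -1.12 on station 2. The chip A set 1425370_a_at lay far under the floor in every culture.

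Among the ETS genes listed with Erg, 0 of 11 tested sets passed and 1 had an unadjusted p under 0.05. The genes named from the list were Etv6, Elf1, Elf4 and Fli1. That set, Etv6 1434880_at, read 9815, 9962 and 15733 in the precursors and 6953, 6677 and 5524 in the mature cultures. Etv6 encodes a repressor that adult blood stem cells need. Its difference was -0.86 ± 0.24 (SE; limma p 0.0042, adjusted 0.43), while its chip A set 1423401_at gave 0.37 ± 0.34. Fli1, the closest relative of Erg, read 1285 to 2094 in precursors and 1434 to 2474 in mature cultures.

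Mecom, whose longer product helps keep stem cells quiescent, differed between cultures far more than between stages. The chip A set 1422295_at read 893 in M1, 617 in M3 and 748 in M5, and 228 in M2, 757 in M4 and 1316 in M6. The highest and the lowest culture were both mature, M6 and M2, the latter under the floor. The difference was -0.25 ± 0.54 (SE; 95% interval -1.45 to 0.95; limma p 0.66, adjusted 0.97), and without M2 it was 0.42. It was 0.16 within the low-ratio cultures and -1.46 within the high-ratio ones, and -1.85 on station 1 against 0.55 on station 2. The chip B set 1438325_at read 4469, 8046 and 2467 in the precursors and 3594, 3473 and 5143 in the mature cultures, with both extremes, M3 and M5, among the precursors. Its difference was -0.16 ± 0.38 (SE; 95% interval -0.99 to 0.68; adjusted p 0.96 in limma), and without M3 it was 0.27. Of the 10 tested sets of its relatives Prdm16, Prdm2 and Prdm1 and its corepressor partners Ctbp1 and Ctbp2, 0 passed and 0 had an unadjusted p under 0.05 in limma.

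Hlf, a PAR bZIP factor that marks blood stem cells, gave the smallest differences of the 9 tested genes. Set 1434735_at read 932 in M1, 1064 in M3 and 678 in M5, and 905 in M2, 1052 in M4 and 696 in M6, above the chip median throughout. The 2 groups covered the same range, and the difference was -0.01 ± 0.31 (SE; 95% interval -0.70 to 0.69; adjusted p 0.9995 in limma). Set 1434736_at read 575, 562 and 599 in the precursors and 330, 582 and 798 in the mature cultures. The precursors lay close together, and the mature cultures spread to either side of them. The difference was -0.11 ± 0.43 (SE; 95% interval -1.05 to 0.83; adjusted p 0.98). Its relatives Tef and Dbp, best known as clock-controlled genes, had 4 tested sets, of which 0 passed and 0 had an unadjusted p under 0.05 in limma. Tef 1424175_at read 2618 to 3545 in precursors and 3509 to 5037 in mature cultures.

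Genes around these factors were counted in the same fit. The 10 lists of relatives, regulators, targets and stem cell genes held 144 tested sets of 84 genes, of which 0 passed at an adjusted p under 0.05. At an unadjusted p under 0.05 chip A had 6 of 91 sets (6.59%, with a background of 6.59%) and chip B 7 of 53 (13.2%, with a background of 6.42%). The chip B count includes 2 sets each of the target genes Bcl2 and Cybb, so it does not count separate genes. The median difference of these sets was 0.11 for chip A, against 0.02 over all its tested sets, and 0.01 for chip B, against 0.0040. Of the 38 sets of chromatin and Cdx regulators of Hox genes, 0 passed and 0 had an unadjusted p under 0.05 in limma. The genes named were Kdm6b, Rbbp5, Suz12 and Aff4. The demethylase gene Kdm6b ranged from 10771 to 13013 in precursors and from 6357 in M4 to 24859 in M6 in mature cultures. Suz12, a Polycomb subunit gene, stayed between 7331 and 9882 in all 6 in its brightest set, 1420021_s_at. Other tested sets of Suz12 varied more. Set 1427253_s_at ran from 598 in M6 to 1942 in M4, and 1452364_at from 44.2 in M6, under the floor, to 854 in M3.

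Among other stem cell transcription factors, 0 of 35 sets passed, and the genes named were Ikzf2, Runx1, Gata2 and Egr1. Gata2, which mast cells need as well as stem cells, read 23812 to 35383 in precursors and 27754 to 50269 in mature cultures. Egr1, an immediate early gene that also restrains stem cell division, read 13482, 5139 and 19730 in the precursors and 59517, 47331 and 31241 in the mature cultures, with no overlap. Its difference was 2.00 ± 0.44 (SE; limma p 0.00084, adjusted 0.10). It was the 1 set of this list under an unadjusted 0.05.

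Of genes known as targets of HOXA9, MEIS1 or MYB, 0 of 20 tested sets passed, and the genes named were Pim1, Kit, Bcl2 and Mpo. At an unadjusted p under 0.05, 3 sets were higher and 4 lower in mature cultures, 3 of 14 on chip A (background 6.59%) and 4 of 6 on chip B (background 6.42%). The 6 tested sets of chip B were of only 2 genes, Bcl2 and Cybb. Sets of 1 gene are not independent, so the chip B share does not count separate targets. The 3 higher ones were all of Bcl2, the survival gene that MYB is known to activate. Bcl2 1443837_x_at read 7266, 6198 and 2879 in the precursors and 14835, 13655 and 13501 in the mature cultures, a difference of 1.47 ± 0.31 (SE; limma p 0.00065, adjusted 0.16). The other 2, 1440770_at and 1422938_at, differed by 1.61 ± 0.42 and 0.86 ± 0.30, and 2 further tested sets, 1437122_at and 1457687_at, by 0.28 ± 0.39 and 0.40 ± 0.29. The 4 lower ones were 2 of the phagocyte oxidase gene Cybb and 1 each of the granule genes Mpo and Elane. These were named after their values were seen. Mpo and Elane also count in the neutrophil and granulocyte precursor list below. Cybb 1436778_at read 4631, 3531 and 20393 in the precursors and 536, 816 and 75.4 in the mature cultures, with an adjusted p of 0.054 in limma. Mpo read 18909 in M1, 614 in M3 and 39343 in M5, and 670 to 938 in the mature cultures, so that M3 was as low as those.

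Stem and progenitor surface genes had 10 tested sets, of which 0 passed. The genes named were Kit, Angpt1, Cd34 and Cd48. Kit, the receptor of stem cell factor on stem cells and mast cells, read 27352 to 38961 in precursors and 37208 to 47932 in mature cultures. Cd34 read 4308 to 8015 and 5795 to 12182. At an unadjusted p under 0.05 there were 2, named after their values were seen. Tek, the angiopoietin receptor gene, differed by 1.11 ± 0.35 (SE; adjusted p 0.38 in limma), and Thy1 by -1.28 ± 0.41 (adjusted p 0.41). Thy1 also counts in the stromal list below.

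Markers of other cell types moved with the stage, where 0.527% of all chip A sets passed at an adjusted p and 6.59% (6.42% on chip B) had an unadjusted p under 0.05. In the monocyte and macrophage list on chip A, 9 of 14 tested sets passed with lower values in mature cultures, of Csf1r, Clec7a, Lyz2, Mpeg1, Lyz1, Ctss, Cd68 and Adgre1. The mean log2 signal over that list's tested sets was 11.87 to 12.51 in precursors and 9.35 to 9.92 in mature cultures, and Mpeg1 was at the floor in all 3 mature cultures. Of the neutrophil and granulocyte precursor list, 2 of 7 sets passed with lower values in mature cultures, Ctsg and Chil3. All 7 were lower at an unadjusted p under 0.05 in limma. The list means were 10.80 to 14.21 in precursors and 8.52 to 9.46 in mature cultures, and Chil3 was at the floor in all 3 mature cultures. Of the stromal list 3 of 9 chip A sets passed with lower values, all of Igfbp4, and 6 of 9 were lower at an unadjusted p under 0.05 in limma. The list means were 11.20 to 11.80 in precursors and 9.86 to 10.42 in mature cultures. These 9 sets were of only 5 genes, so the counts and means do not stand for separate genes. The 1 tested stromal set of chip B was higher in mature cultures, with a difference of 0.33. Basophil markers had 0 passing sets of 5, with 3 lower at an unadjusted p under 0.05 in limma. Megakaryocyte markers had 0 of 4, with 1 higher and 1 lower at an unadjusted p under 0.05. Of 13 tested mast cell marker sets 1 passed, Hdc, lower in mature cultures. The list mean on chip A was 13.79 to 14.36 in precursors and 14.06 to 14.42 in mature cultures. These means do not measure the share of mast cells in a culture. The lower values of Hoxa9 and Hoxa5 in mature cultures ran the same way as these macrophage and granulocyte genes, and the part of those cells in them was not tested.

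For each of the 9 genes with a tested set, the 2 genes whose signal followed it most closely over the 6 cultures were taken on the same chip by Pearson correlation of log2 signal. The 6 points share stage, control ratio and station, and the values are given as a description. For Hoxa9 they were Cln8 (0.99) and Slc35b2 (0.98), with 14 of 10466 candidate sets above 0.95. For Hoxb4 they were Mrm3 (0.996) and Lgals2 (0.99), and for Meis1 on chip A Agfg1 (0.995) and Chtop (0.99). For Myb they were Fads2 (0.99) and Sec63 (0.99), and for Hlf Ndufa7 (0.99) and Tmem33 (0.99). On chip B, Hoxa5 was followed by Uba6 (0.98) and Ip6k3 (0.98), Hoxa10 by Amhr2 (0.99) and Bbs4 (0.98), Erg by Rab6b (0.99) and Mettl26 (0.99), and Meis1 by Nsun4 (0.99) and Srrm2 (0.99). Mecom was followed by Kpna6 (0.99) and Slc23a2 (0.99) on chip A and by Dync1h1 (0.98) and Prdm10 (0.97) on chip B. The number of candidate sets above 0.95 ran from 7 for Mecom on chip B to 39 for Meis1 on chip B. None of the 10 genes was among the neighbours of another. With only 2 neighbours taken from so many candidate sets, that does not show whether the 10 genes vary together.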

How the data were processed

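The authors deposited an intensity for each probe set, unlogged. Per the submitters' processing notes these are MAS5 signals; its version and settings are not given in the sources used here. From the deposited instrument records (other values) the fluidics station and the day of scanning were taken.

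Each chip was handled apart. Values under the chip's 30th percentile were set to that floor, log2 was taken, sets with at least 3 of 6 arrays above the chip median were kept, and the 64 control sets per chip were left out. The 2 stages were compared in limma 3.58.1 (R 4.3.3; lmFit, eBayes with an intensity trend, no covariate), two-sided, with Benjamini-Hochberg adjustment at 0.05. The number of arrays limits the precision. Symbols came from GEO's platform annotation, which gave 1 symbol to 20380 and 14661 sets of chips A and B, several to 691 and 245, and none to 1555 and 7605. Sets with several were named for no gene. Motif counts and figures used Python 3.11.15 and matplotlib 3.10.9. The fit was tested on simulated data.

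The members and lists were chosen with earlier results of these data known. Every member set is named. Of other lists, genes past the test are named, otherwise up to 4 with the highest mean signal, which only picks names and compares no levels. For each tested member the 2 nearest genes by correlation are named, and for Meis1 and Mecom this was done on each chip. Exceptions are marked in the text.

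The alternatives were 2 scalings, 2 floors, 2 filters, sex and fluidics station as terms, no trend, array weights, and each culture left out. The division by control ratio as a term was added after the data were seen, as was an interaction of stage and sex, which rests on 1 female culture per stage and is not reported.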

Additional observations from a re-analysis of the deposited data

How the results depend on the processing

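No member set passed at an adjusted p under 0.05 in limma on either chip under any alternative run, and 3 of 14 had an unadjusted p under 0.05 in the reported fit. Hoxa9 1421579_at stayed under that in all 17 alternatives, whereas Hoxa5 1443803_x_at reached 0.085 without M1, 0.054 without M3, 0.070 without M4 and 0.060 with no filter, and Myb 1450194_a_at 0.077 without M3 and 0.096 without M4. The lowest adjusted p was 0.14, for Hoxa9 1421579_at without M2, where the difference was -2.08. Over its 17 alternatives that difference ran from -2.08 to -1.03 and its adjusted p from 0.14 to 0.82. The difference of Hoxa5 1443803_x_at ran from -1.95 to -1.01 and that of Myb 1450194_a_at from 0.53 to 0.81. Sets near 0 changed sign. Hlf 1434735_at was at 0.049 with array weights and, with 1 culture left out, between -0.19 and 0.16. Hlf 1434736_at was at 0.14 and Mecom 1422295_at at 0.16 with a floor at the median, and with 1 culture left out they ran from -0.40 to 0.24 and from -0.78 to 0.42. Mecom 1438325_at ran from -0.58 to 0.27 with 1 culture left out. The other 10 sets kept their direction. The count of all sets called on chip A, 61, was 1 with no filter, 39 with the control ratio as a term, and 21 (without M5) to 59 with 1 culture left out, with 25 without M2. On chip B, 11 became 4 with no floor, 17 with a floor at the median, 0 with no filter, 6 with the filter on mean signal, 17 with sex as a term, 3 with no trend, 7 with array weights, 6 with the control ratio as a term, and 3 (without M6) to 11 with 1 culture left out, with 5 without M2 or M4 and 6 without M5. The causes were not tested. Scan day could not be fitted, because each chip was scanned on 1 day. Under the filter on mean signal above the 60th percentile, Hoxa10 1446408_at, Hoxb4 1460379_at, Mecom 1422295_at and Hlf 1434736_at were not tested. No paired analysis was possible because the 2 groups share no replicate numbers.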
